A study of Homo sapiens with 19 samples.

Results

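The distal sites described here carried H3K4me2, the dimethylation of lysine 4 on histone H3, in vehicle-treated MOLM-13 cells and stayed without detected H3K27ac, the acetylation of lysine 27 on the same histone, both before and after treatment with Corin. They were chosen by measured peak calls: a region of the 2 merged DMSO H3K4me2 peak lists with a peak in both, more than 1 kb from every GENCODE release 44 protein-coding or lncRNA transcription start site (TSS, basic set), and with no peak in any of the 4 H3K27ac or the 4 H3K4me3 lists. Of 33662 merged DMSO regions, 25088 had a peak in both lists, 9404 of those lay more than 1 kb from every TSS, 8402 of those had no H3K4me3 peak, and 2871 had no H3K27ac peak in any list. The presence of H3K4me2 in DMSO and the absence of the other 2 marks are therefore what defined the sites and not a finding about them.

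MOLM-13 is an established human acute myeloid leukaemia line. Its cells were treated for 24 h with DMSO, the vehicle, or with Corin, each labelled with a dose of 0.1 µM, and were profiled by CUT&RUN, in which an antibody-directed nuclease releases the DNA around a histone mark. Each of the 3 marks was profiled in 2 replicate libraries per treatment, so 12 libraries entered the comparisons, and the other 7 of the 19 were not analysed here. The labels do not say whether replicates were separate cultures, so the p-values below measure the spread between these libraries, which may be technical.

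H3K4me2 marks both promoters and distal regulatory elements. A distal element with H3K4 methylation and no H3K27ac is usually called primed, and one that has gained acetylation is called active. LSD1 removes methyl groups from mono- and dimethylated H3K4 and HDAC1 and HDAC2 remove acetyl groups from histones. These enzymes work together in the CoREST complex, and Corin is a dual inhibitor that joins an LSD1-blocking and an HDAC-blocking group in a single molecule.

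The results below turn on the content of CpG dinucleotides, so the central 300 bp of 4 staying sites are printed with each CpG in capitals (hg38, plus strand, 5′ to 3′). The first is the widest site, chr17:79813138-79813437, intergenic and nearest to CBX8, which encodes a subunit of Polycomb repressive complex 1. The second, chr7:155373952-155374251, is intergenic and among the highest-scoring sites. Its nearest protein-coding gene is INSIG1, a regulator of sterol synthesis in the endoplasmic reticulum. That site lay 74542 bp from the INSIG1 TSS and 4497 bp from the nearest TSS of any protein-coding or lncRNA gene. The third, chr19:54388286-54388585, is intergenic, nearest to LAIR1, an inhibitory collagen receptor of leukocytes, and was the site with the highest score rank in DMSO. The fourth, chr1:205286447-205286746, is the CpG-poor centre of the site with the second largest mean width under DMSO peaks, at the end of TMCC2.
CBX8 site: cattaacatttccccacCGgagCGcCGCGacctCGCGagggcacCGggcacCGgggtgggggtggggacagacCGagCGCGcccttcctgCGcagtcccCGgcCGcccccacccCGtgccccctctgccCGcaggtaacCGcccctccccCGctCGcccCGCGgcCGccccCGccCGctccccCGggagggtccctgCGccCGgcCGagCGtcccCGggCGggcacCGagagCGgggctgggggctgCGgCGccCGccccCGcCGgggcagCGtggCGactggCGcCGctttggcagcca
INSIG1 site: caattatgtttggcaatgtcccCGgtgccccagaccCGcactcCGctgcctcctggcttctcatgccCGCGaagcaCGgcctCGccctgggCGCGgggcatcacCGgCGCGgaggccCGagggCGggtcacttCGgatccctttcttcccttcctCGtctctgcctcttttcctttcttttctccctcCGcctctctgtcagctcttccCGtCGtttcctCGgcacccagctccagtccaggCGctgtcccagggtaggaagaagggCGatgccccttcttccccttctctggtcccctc
LAIR1 site: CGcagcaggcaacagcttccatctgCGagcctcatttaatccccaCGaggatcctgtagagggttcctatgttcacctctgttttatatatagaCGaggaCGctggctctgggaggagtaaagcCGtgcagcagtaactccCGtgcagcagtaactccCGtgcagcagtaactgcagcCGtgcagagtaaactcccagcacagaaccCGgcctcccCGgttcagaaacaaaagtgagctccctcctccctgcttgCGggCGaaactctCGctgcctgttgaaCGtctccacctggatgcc
TMCC2 site: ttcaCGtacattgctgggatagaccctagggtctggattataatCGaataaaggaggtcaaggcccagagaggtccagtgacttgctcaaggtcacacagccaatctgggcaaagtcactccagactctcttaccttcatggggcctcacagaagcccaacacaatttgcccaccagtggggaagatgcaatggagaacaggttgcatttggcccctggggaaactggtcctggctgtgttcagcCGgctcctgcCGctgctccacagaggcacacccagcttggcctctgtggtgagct
The CBX8 window held 42 CpGs, the INSIG1 window 22, the LAIR1 window 15 and the TMCC2 window 4. Over all 2871 sites the central window held a median of 7 CpGs, against a median of 3 in 5036 windows placed 3 kb to either side of the sites.

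The 12 peak lists held 30896 and 32299 H3K4me2 peaks in DMSO and 41152 and 40042 in Corin, 17599 and 19995 H3K27ac peaks in DMSO and 34424 and 30029 in Corin, and between 11104 and 11883 H3K4me3 peaks. The longer Corin lists matter for both sides of the comparison, since a longer H3K27ac list leaves fewer sites without that mark and a longer H3K4me2 list covers more sites by number alone. H3K4me3 lay over the promoter in both DMSO lists for 7 of 9 myeloid leukaemia markers (SPI1, CEBPA, FLT3, CD33, HOXA9, MEIS1 and PTPRC, not MPO or ANPEP) and for 0 of 8 markers of other cell types. Of 5117 regions that met the mark criteria at any distance, 2246 lay within 1 kb of a TSS and were left out. The 5 sites just outside that limit lay 1006 to 1013 bp from a TSS with 221 to 1056 bp under DMSO H3K4me2 peaks, and the 5 regions just inside it lay 987 to 1000 bp away with 205 to 2002 bp.

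For comparison, the 8402 distal H3K4me2 regions without H3K4me3 also held 2388 active sites, with H3K27ac in both DMSO lists, 710 acquiring sites, with none in DMSO and a peak in both Corin lists, and 2433 with another H3K27ac pattern. The number of acquiring sites depended on the lists. It was 262 with each list cut to its mark's shortest length and 970 to 1439 with 1 H3K27ac library left out. The staying sites were narrower, with a median width of 669 bp, a lower quartile of 469 bp and an upper quartile of 935.5 bp, against medians of 802.5 bp for acquiring and 1024 bp for active sites. Their median distance to a TSS was 9925 bp, against 12119 bp for acquiring and 14002 bp for active sites. Exons of protein-coding or lncRNA genes held 14.45% of the staying sites, introns 47.8% and intergenic DNA 37.8%; for active sites these shares were 10.2%, 60.8% and 29.0%. The nearest H3K27ac peak of any list lay a median of 18813 bp away, 295 staying sites (10.3%) had one within 1 kb and 2057 (71.6%) within 50 kb.

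The genes nearest to the staying sites carried active promoter marks less often than those nearest to active sites. An H3K4me3 peak in both DMSO lists covered the promoter of the nearest protein-coding gene for 54.5% of staying, 67.5% of acquiring and 75.04% of active sites, against 50.2% of all protein-coding genes. For promoter H3K27ac the shares were 26.6%, 37.7% and 51.9%, against 27.9% of all protein-coding genes. For promoter H3K4me2 they were 73.5%, 80.6% and 85.85%, against 61.2% of all protein-coding genes. The staying sites thus lay near the share of all genes for H3K4me3 and H3K27ac and above it for H3K4me2. No test was made of these shares, since sites near the same gene are not independent and H3K27ac itself defined the sets.

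The CpG content of the staying sites was higher than that of every other distal class compared. The median ratio of observed to expected CpG was 0.35 at staying sites, 0.23 at acquiring and 0.22 at active sites, and median GC content was 51.9%, 47.9% and 46.9%. A region with a GC content of at least 50% and a CpG ratio of at least 0.6 is called CpG-island-like below, a class that was defined after the values had been seen. There were 578 such regions among the 2871 staying sites (20.1%, 95% Wilson interval 18.7% to 21.6%, which covers counting error only). There were 6 among the 710 acquiring sites (0.845%), 4 among the 2388 active sites (0.168%) and 21 among the other 2433 (0.863%).

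**Figure D1:**
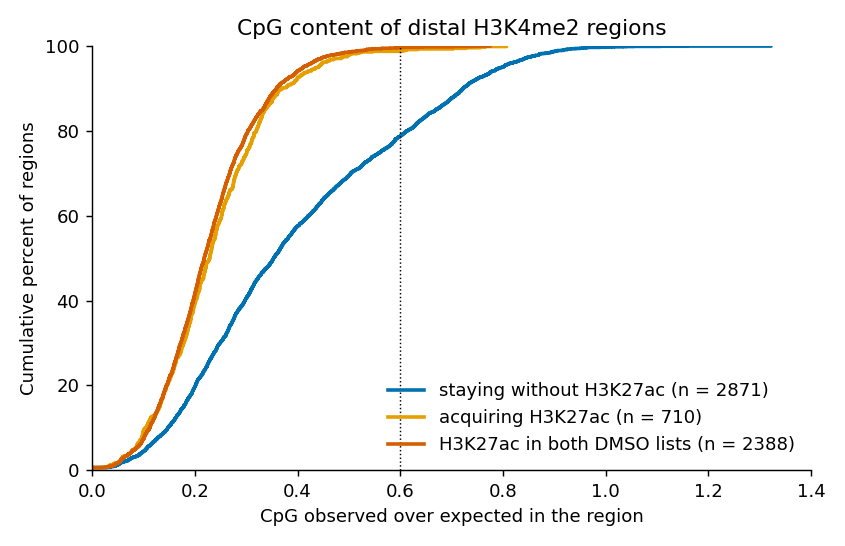
Cumulative percent of regions (vertical axis) by the ratio of observed to expected CpG (horizontal axis) for staying, acquiring and active distal sites; the dotted line marks 0.6. The curve of the 2871 staying sites lies to the right of the other curves, with a median of 0.35 against 0.23 and 0.22.

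Read the other way, 578 of the 609 CpG-island-like distal regions without H3K4me3 stayed without H3K27ac (94.9%, Wilson interval 92.9% to 96.4%), against 2293 of the 7793 others (29.4%). The share staying was 19.9% at a CpG ratio of 0.1 to 0.2, 35.1% at 0.3 to 0.4, 71.3% at 0.5 to 0.6 and 97.9% at 0.8 or above. Over those same bins the share of active sites went from 37.2% to 25.6%, 6.97% and 0%. Among CpG-island-like regions the staying share was 94.2%, 94.7% and 95.6% in the narrow, middle and wide tercile of all distal regions, where it was 42.9%, 29.8% and 15.2% among the others. The share thus differed little between width classes in the CpG-island-like regions and more in the others. It was 93.3% more than 10 kb from a TSS, 98.7% in exons, 94.3% in introns and 93.2% in intergenic DNA.

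**Figure D2:**
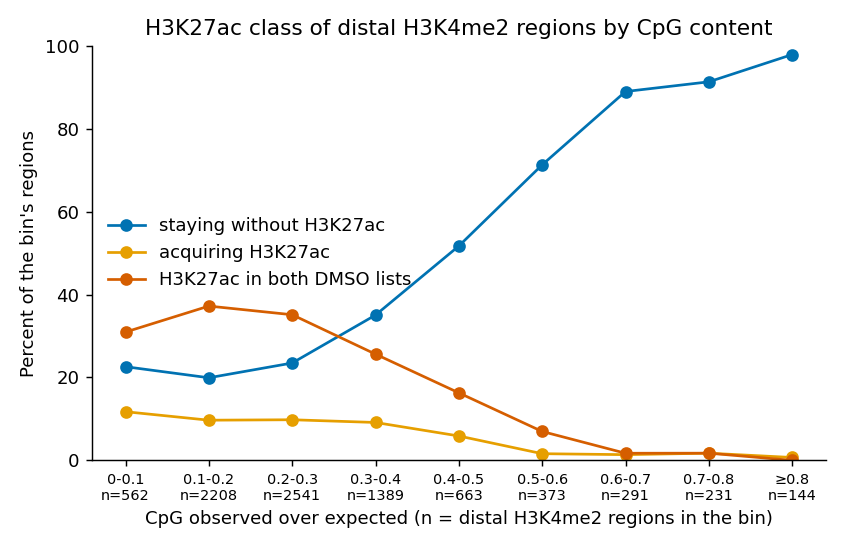
Percent of distal H3K4me2 regions without H3K4me3 (vertical axis) that were staying, acquiring or active, by bins of the CpG ratio (horizontal axis, with the number of regions in each bin). The staying share is 19.9% in the 0.1 to 0.2 bin and 97.9% in the highest bin, where 141 of 144 regions stayed.

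This share depended on the absence of H3K4me3. Of 307 CpG-island-like distal regions with an H3K4me3 peak in any list, 135 (43.97%) were without H3K27ac and 64 (20.8%) had it in both DMSO lists. Counted with and without H3K4me3, 713 of 916 CpG-island-like distal regions (77.8%) were without H3K27ac, against 28.9% of 8488 others.

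The 578 CpG-island-like sites differed from the other 2293 staying sites in further measures, of which width, score rank and the distance to H3K27ac come from lists that the rule used and are a description. Their median width was 854 bp against 627 bp, 25.95% against 11.6% lay in exons, and their median distance to an H3K27ac peak was 39679 bp against 14785 bp. The promoter of the nearest gene had H3K4me3 for 38.4% of them and for 58.5% of the others. Their DMSO peaks also ranked higher, with a median score percentile within the list of 39.1 and 55.7 in DMSO replicates 1 and 2, against 29.2 and 34.7 for the others. The DMSO libraries thus differed more at the CpG-island-like sites than at the others.

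Short matches to transcription factor motifs were counted on both strands of the central 300 bp. The C/EBP motif TTGCNNAA, bound by a family of myeloid factors, was in 14.4% of staying, 17.9% of acquiring and 22.4% of active sites, against 12.8% of the flanking windows. The PU.1 motif GAGGAAGT, of the factor encoded by SPI1, was in 4.53% of staying, 4.51% of acquiring and 6.28% of active sites and 1.39% of flanks. The RUNX motif TGTGGTT was in 8.64%, 10.7% and 9.84% of the same sets and 4.77% of flanks, and the AP-1 motif TGANTCA in 12.1%, 16.2%, 14.5% and 8.14%. So the PU.1, RUNX and AP-1 letters were more frequent at staying sites than in their flanks, and the MYB motif TAACNG was not, at 23.1% against 23.2%.

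Motifs that were more frequent at staying than at acquiring or active sites were those for KLF, NF-kB, IRF, ETS and CTCF. The KLF motif GGGNGTGG was in 14.3% of staying, 11.1% of acquiring and 11.7% of active sites and the ETS motif CCGGAAGT, which contains a CpG, in 0.871%, 0.282% and 0.251%. The consensus of CTCF, an insulator protein, was in 30 staying sites (1.04%), 3 acquiring and 5 active sites, and in 0.199% of flanks. Within the staying sites, C/EBP matches were in 6.57% of the CpG-island-like and 16.4% of the other sites, AP-1 matches in 4.50% and 14.0%, KLF matches in 21.6% and 12.4% and CTCF matches in 2.25% and 0.741%. These are counts of letters in a window, and base composition differed between the sets, so they were not tested.

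**Figure D3:**
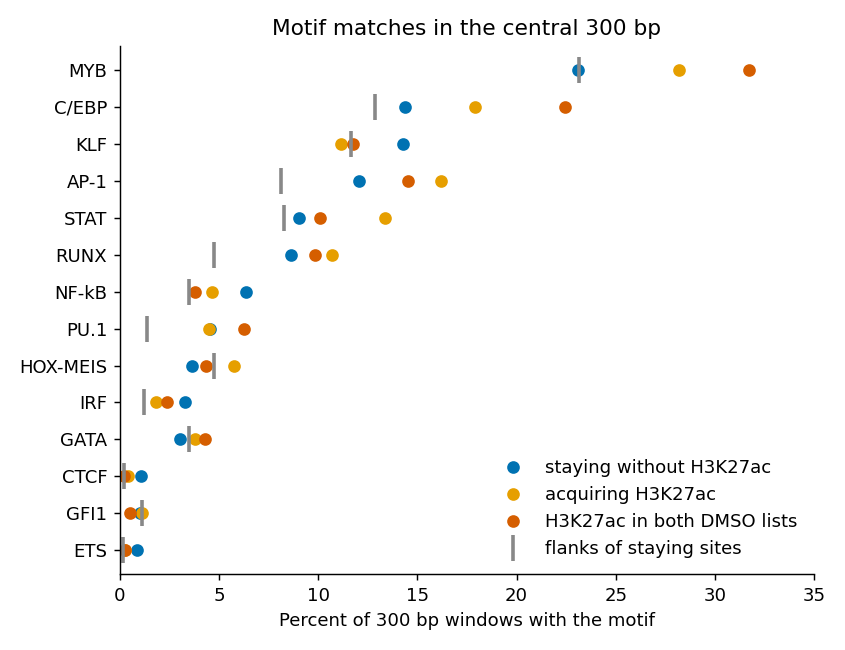
Percent of central 300 bp windows with a match (horizontal axis) for 14 motifs (vertical axis) at staying, acquiring and active sites; grey ticks are the flanks of the staying sites. For C/EBP the staying sites (14.4%) lie nearer to the flanks (12.8%) than the active sites (22.4%) do, and for CTCF they lie above all the others.

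Nearly all staying sites still had an H3K4me2 peak after Corin. A peak overlapped 2821 of them (98.3%) in Corin replicate 1 and 2764 (96.3%) in replicate 2, and 2739 (95.4%) had a peak in both. So did 97.9 percent of all 25088 regions in both DMSO lists, which include promoters, and 96.9% of all 8402 distal regions without H3K4me3. For acquiring and active sites the share was 99.0% and 98.4%. A further 107 staying sites had a peak in 1 Corin list. The other 25 (0.871%) had none, against 0.267 percent of all 25088 and 0.464% of the 8402 distal regions. These 25 sites had a median width of 379 bp and a median DMSO score percentile of 11.2. Retention followed the DMSO score: it was 88.5% in the lowest tercile of staying sites by score percentile, 97.9% in the middle and 99.8% in the highest. In the lowest score class it was 96.9% at acquiring and 92.3% at active sites. The DMSO lists chose the sites, so a share below 100% could arise from list noise alone; with the lists swapped, of 6400 regions chosen in both Corin lists by the same criteria, 46.4% had a peak in DMSO replicate 1, 56.8% in replicate 2 and 39.1% in both. With each list cut to its mark's shortest length, the rule gave a different set of 3627 sites, of which 82.5% had a peak in both Corin lists.

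The peaks over these sites were wider after Corin at 1496 of the 2871 sites. The mean width of the peaks over a staying site was 600.2 and 654 bp in DMSO replicates 1 and 2 and 1073 and 900.4 bp in Corin, so the Corin values lay above both DMSO values. A site counted as wider when both Corin values exceeded both DMSO values: 1496 staying sites (52.1%) were wider and 106 (3.69%) narrower, against 42.1 percent and 4.93 percent of all regions in both DMSO lists, which include promoters. Among distal regions the staying sites had the lowest wider share: it was 60.3% of all 8402, 74.9% of acquiring, 62.2% of active and 64% of the remaining sites. At 389 staying sites (13.55%) a Corin peak also covered another DMSO region, as it did at 15.6% of all 8402 distal regions. Among the other 2482 staying sites the wider share was 48.3%. Without such a join it was 56.7% of all distal regions, 72.8% of acquiring and 58.5% of active sites. Counting the bases inside the DMSO region alone, 20.9% of staying sites were higher and 5.57% lower in both Corin lists. Of all 8402 distal regions, 24.4% were higher and 3.64% lower, with 33.7% and 0.845% at acquiring and 24.1% and 3.22% at active sites. The region borders cap the higher share, since the DMSO peaks set them.

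The difference in width between treatments is given next for staying and acquiring sites, as a description, since DMSO H3K4me2 chose both sets and H3K27ac in Corin chose the acquiring sites. In a window of 2 kb the bases under H3K4me2 peaks averaged 648 and 703 bp in DMSO and 959 and 858 bp in Corin at staying sites, and 763 and 794 bp in DMSO and 1244 and 1112 bp in Corin at acquiring sites. By peak width, the log2 ratio of staying over acquiring sites was lower in Corin than in DMSO by a difference of -0.22 (SD of the difference 0.06, n = 2 libraries per treatment, exact two-sided permutation p = 0.333, the smallest that 6 arrangements allow). The groups of libraries did not overlap. The difference was -0.13 without DMSO H3K4me2 replicate 2 and -0.09 for bases inside the region alone. Leaving out that library left 1 DMSO library against 2 in Corin and a larger set of 4569 sites, and the exact permutation p was then 0.667 over 3 arrangements.

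**Figure D4:**
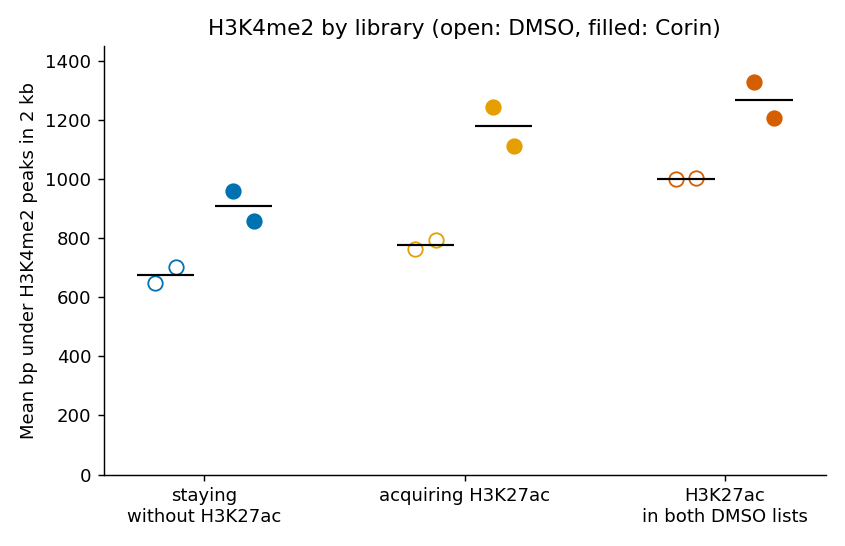
Mean bases under H3K4me2 peaks in 2 kb windows (vertical axis) for each library (points; open DMSO, filled Corin; line, mean of 2) at staying, acquiring and active sites. At staying sites both Corin libraries (959 and 858 bp) lie above both DMSO libraries (648 and 703 bp), with a smaller gap than at acquiring sites.

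Since the rule fixed H3K4me2 in DMSO, a wider set was also described: regions of all 4 merged H3K4me2 lists with the same distance and absence criteria, in which a peak in any list sufficed. The longer Corin lists admitted more of them: 6846 of 12285 (55.7%) had a peak in Corin lists alone and 588 (4.79%) in DMSO lists alone. The ratios below are therefore a description of this set and support no gain. Of these 12285 regions, 3549 and 4452 had a peak in DMSO replicates 1 and 2 and 9945 and 8054 in Corin. The ratio of the means was 2.25-fold, a log2 ratio of 1.17 (SD of the difference 0.32, n = 2 libraries per treatment). The mean width under peaks per region was 174.5 ± 29.2 bp in DMSO and 418 ± 70.9 bp in Corin (SD, n = 2), a log2 ratio of 1.26. With every list at the length of its mark's shortest list the set held 9601 regions. These log2 ratios were then 0.36 and 0.80, so the ratio for the number of regions depended on list length.

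The ratios differed between the classes of that set, and so did the way in: a peak in Corin lists alone admitted 139 (15.1%) of the CpG-island-like and 6707 (59.03%) of the other regions. Of 923 CpG-island-like regions, 532 (57.6%) and 762 (82.6%) had a peak in DMSO replicates 1 and 2 and 769 (83.3%) and 744 (80.6%) in Corin. Of 11362 other regions, 3017 (26.6%) and 3690 (32.5%) had one in DMSO and 9176 (80.8%) and 7310 (64.3%) in Corin. The ratio of the Corin to the DMSO mean was 1.17-fold for the CpG-island-like and 2.46-fold for the other regions. DMSO replicate 1 was the low library for the CpG-island-like class; against DMSO replicate 2 alone the ratios were 0.993-fold and 2.23-fold. The log2 ratio of CpG-island-like to other regions fell by 1.05 from DMSO to Corin (SD of the difference 0.26, n = 2 libraries per treatment), a direction that the way of admission favours. At matched list lengths, in a set of 9601 regions, the numbers were 547 and 731 in DMSO and 560 and 579 in Corin for CpG-island-like regions. For the others they were 4130 and 4432 against 6037 and 5477, and the log2 difference was -0.58. The exact two-sided permutation p was 0.333 for these 3 ratios, as for the staying against the acquiring sites, also after Benjamini-Hochberg adjustment over the 4 tests, and is read as evidence for none of them.

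**Figure D5:**
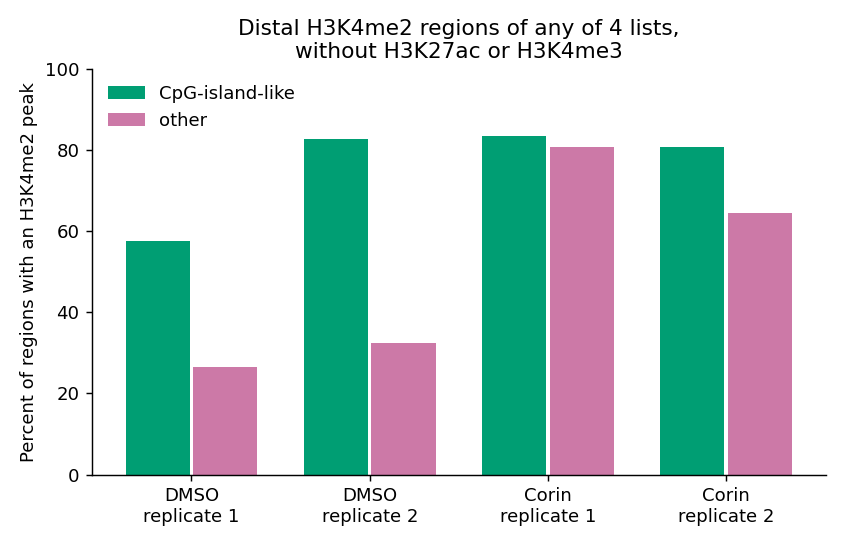
Percent of CpG-island-like (n = 923) and other (n = 11362) distal regions of any H3K4me2 list, without H3K27ac or H3K4me3, that had an H3K4me2 peak (vertical axis) in each of 4 libraries (horizontal axis). The CpG-island-like bars stand at 57.6% to 83.3%, and the other bars at 26.6% and 32.5% in DMSO and 80.8% and 64.3% in Corin.

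The 6 widest staying sites by mean width under DMSO H3K4me2 peaks lay nearest to CBX8, TMCC2, RNF220, INSIG1, MFHAS1 and IRS2. The CBX8 site (chr17:79811242-79815334, 14165 bp from the TSS of CBX8) had 2844 and 4093 bp under DMSO peaks and 5335 and 5384 bp in Corin, so both Corin peaks were wider, and they reached a second staying site nearby. The TMCC2 site (chr1:205284784-205288410) had 3092 and 3555 bp in DMSO and 4026 and 4125 bp in Corin, with a CpG ratio of 0.18, the opposite of the CBX8 site at 0.695. The RNF220 site (chr1:44410751-44414529, over an exon of this ubiquitin ligase gene) had 3530 and 3021 bp in DMSO and 8810 and 3377 bp in Corin, so Corin replicate 1 alone stood far above. The site nearest to IRS2, an adaptor of insulin receptor signalling, overlapped one of its exons (chr13:109779112-109782094) with 2907 and 2983 bp in DMSO and 3099 and 3117 bp in Corin. The MFHAS1 site had 2950 and 3010 bp in DMSO and 3301 and 2962 bp in Corin, which overlap.

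By score, the highest-ranked sites lay nearest to LAIR1, EGR3, INSIG1 and CHST14. The LAIR1 site (chr19:54387685-54389186) averaged the 98.9th score percentile in DMSO and had 1471 and 1281 bp under peaks, against 3132 and 2734 bp in Corin, where the peak joined another region. The INSIG1 site (chr7:155372431-155375773) had 3128 and 3181 bp in DMSO and 3596 and 3415 bp in Corin, with a CpG ratio of 0.80. The site nearest to CHST14, a dermatan sulfotransferase gene, lay 39915 bp from its TSS and 22960 bp from any TSS (chr15:40511001-40512424, in an intron of a lncRNA gene). It had 1125 and 1424 bp in DMSO and 1301 and 1216 bp in Corin, with no parting of the treatments. Strong H3K4me2 thus stood at these sites with no H3K27ac peak within 2666 bp of the INSIG1 site, 5177 bp of the LAIR1 site and 16625 bp of the CHST14 site.

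The largest rises in peak width lay in sites where a Corin peak had joined a neighbouring region. At NFE2, a transcription factor gene of the erythroid and megakaryocytic lineages, an intronic site 1971 bp from the TSS (chr12:54297731-54298403) had 602 and 673 bp in DMSO and 6402 and 4996 bp in Corin. In a 2 kb window this was 1076 and 1334 bp against 2000 and 1554 bp. At SNX18, a sorting nexin gene, the intronic site (chr5:54521990-54522473) had 288 and 237 bp in DMSO and 7123 and 4145 bp in Corin, or 924 and 788 bp against 2000 and 1431 bp in the 2 kb window. The site 1762 bp from the TSS of PTGER2, a prostaglandin E2 receptor gene, had 1197 and 1017 bp in DMSO and 6623 and 6030 bp in Corin, or 1350 and 1248 bp against 1687 and 1653 bp. The fourth, a CpG-island-like site nearest to CBX8 (chr17:79810064-79810703), had 236 and 640 bp in DMSO and shared the Corin peaks of 5335 and 5384 bp with the widest site, or 236 and 782 bp against 1350 and 1390 bp in the window. The nearest H3K27ac peak of any list lay 519 bp away at NFE2, 1119 bp at SNX18, 1846 bp at PTGER2 and 5534 bp at this CBX8 site. In the same order, the nearest H3K4me3 peak lay 727, 1136, 787 and 5424 bp away.

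The largest falls were losses of weak peaks. The sites nearest to FOXC1, a forkhead factor gene (chr6:1553865-1554708, 405 and 681 bp in DMSO), SCAND3 (200 and 795 bp), DIAPH3, a formin gene (524 and 412 bp), and PAPOLG, a poly(A) polymerase gene (462 and 464 bp), had no peak in either Corin list. Their mean DMSO score percentiles were 8.84, 3.61, 14.0 and 19.9. In the same order, the nearest H3K27ac peak of any list lay 220, 22414, 102761 and 20279 bp away. The FOXC1 site lay 55207 bp from the TSS of that gene and 113 bp from an H3K4me3 peak.

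The 2871 sites lay nearest to 2288 protein-coding genes, of which 1858 had 1 site and 9 had 5 or more. SCAND3 had the most, 12 sites over chr6:28589101-28759073, all 12 of the distal regions nearest to it; 11 of them kept a peak in both Corin lists. UACA had 7, SMAD3, a signal transducer of TGF-beta, had 6, and BCOR, which encodes a transcriptional corepressor, DLX2, a homeobox factor gene, GADD45B, a stress response gene, RUNX1, a haematopoietic transcription factor gene, and ZNF217, a zinc finger gene, had 5 each. With each peak counted once, the widths of the peaks over the SCAND3 sites summed to 9585 and 11317 bp in DMSO and 10746 and 9229 bp in Corin, and at GADD45B to 2939 and 4246 bp against 4205 and 4621 bp, so the treatments overlapped at both. At SMAD3 all 6 sites were intronic and summed to 3790 and 4100 bp under peaks in DMSO and 8096 and 7270 bp in Corin, with no overlap. At DLX2 the 5 sites, the only distal regions nearest to it, summed to 2589 and 3139 bp in DMSO and 3776 and 3478 bp in Corin. At UACA the 7 sites summed to 4195 and 5299 bp in DMSO and 6544 and 6854 bp in Corin. Nearness is a matter of position alone, and no link to the gene was measured.

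RUNX1 showed how sites within a single gene differed. The exonic site at chr21:34880457-34880747 had 285 and 211 bp in DMSO and 3651 and 258 bp in Corin, where replicate 1 had a joined peak. The intronic site at chr21:34892316-34892716 had 279 and 320 bp in DMSO and 2419 and 2339 bp in Corin, also joined. The widest, at chr21:35528143-35529733 and 203209 bp from any TSS, had 1591 and 1234 bp in DMSO and 1864 and 1749 bp in Corin. That last site was at the 92.6th score percentile, and the first 2 were at the 21.1st and 9.79th.

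There were 188 groups of staying sites with gaps of at most 10 kb, holding 399 sites. The largest groups, named after their values were seen, had 4 sites each and lay at OTX1, OTP, ZNF217 and SCAND3. At OTX1, a homeobox gene of brain development, the peaks over 4 sites within chr2:63053788-63060184 summed to 3912 and 5001 bp in DMSO and 5796 and 4765 bp in Corin, each peak counted once. At OTP, another homeobox gene, the peaks over 4 sites within chr5:77640113-77645888 summed to 2788 and 3424 bp in DMSO and 3195 and 3227 bp in Corin, so the treatments overlapped at both genes. The nearest H3K27ac peak of any list lay 267499 bp from the OTX1 group, 9182 bp from the OTP group, 5490 bp from the SCAND3 group and 210 bp from the ZNF217 group. Over 25 symbol families of developmental transcription factors (such as PAX, SOX, FOX, DLX and HOX), chosen after these groups were seen, 74 staying sites (2.58%) lay nearest to a family gene. The share was 7.44% of the CpG-island-like and 1.352% of the other staying sites, 1.27% of acquiring and 0.879% of active sites, and family genes made up 1.13% of all protein-coding genes. DLX2 had 5 staying and 0 active sites, OTX1 and OTP 4 and 0 each, and PAX2 and LHX2 3 and 0 each.

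Across 10 gene lists, a staying site lay within 50 kb of a TSS for 6 of 12 retinoic acid genes, 6 of 13 stem-cell and MLL-fusion linked genes, 6 of 14 T and NK cell genes, 4 of 13 myeloid transcription factors, 4 of 12 B cell genes and 4 of 12 erythroid and megakaryocyte genes, against 17.95% of all protein-coding genes. Neighbouring genes can share a site, such as HOXA7, HOXA9 and HOXA10 or CD3D, CD3E and CD3G, so these are not independent. By nearest gene, 8 staying and 30 active sites lay at stem-cell and MLL-fusion linked genes, and 11 and 19 at myeloid transcription factors. The numbers were 4 and 3 at T and NK cell genes, 4 and 3 at retinoic acid genes and 4 and 0 at B cell genes. At erythroid and megakaryocyte genes they were 3 and 0, of 2871 staying and 2388 active sites in all. A staying site lay within 50 kb for 2 of 13 monocyte and macrophage genes, 2 of 12 granulocyte genes, 2 of 10 liver genes and 0 of 12 neuronal genes. The retinoic acid genes were those of the receptors RARA, RARB, RARG and RXRA and of the enzymes DHRS3 and ALDH1A2. An intronic site of DHRS3, which reduces retinal (chr1:12595532-12596928), had 1259 and 1397 bp in DMSO and 1339 and 1477 bp in Corin, overlapping values at the 91.6th DMSO score percentile. An intronic site of RXRA (chr9:134406687-134407400) had 443 and 714 bp in DMSO and 1136 and 851 bp in Corin, and one in ALDH1A2, which makes retinoic acid from retinal (chr15:58247776-58248629), had 854 and 747 bp in DMSO and 1190 and 925 bp in Corin, neither with overlap.

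Among lineage genes, a site nearest to MYB, a progenitor transcription factor gene (chr6:135145393-135145772), had 346 and 373 bp in DMSO and 1301 and 597 bp in Corin and lay 208 bp from an H3K27ac peak. A CpG-island-like site over an exon of ITGA2B, a platelet integrin gene (chr17:44384870-44385902), had 933 and 1025 bp in DMSO and 1040 and 1007 bp in Corin. In T cell genes the site near TBX21, a factor of T helper cells (chr17:47721064-47721598), had 535 and 348 bp in DMSO and 886 and 948 bp in Corin, and that near CD3E 691 and 688 bp against 1006 and 1064 bp. At EBF1, a B cell factor gene, a CpG-island-like site 6623 bp from its TSS and outside the gene (chr5:159106539-159106953) had 388 and 410 bp in DMSO and 384 and 388 bp in Corin. A second, CpG-poorer site in its intron had 685 and 398 bp against 1229 and 1058 bp. The nearest H3K27ac peak lay 76036 bp from the first of these 2 sites and 40 bp from the second.

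By chromosome the staying share of distal regions was between 30.0% on chromosome 21 and 48.8% on chromosome 19 (179 of 367 regions) among chromosomes with at least 100 distal regions. Without chromosome 19, 95.02% of CpG-island-like distal regions stayed, against 94.9% with it.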

How the data were processed

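CUT&RUN peak lists of MOLM-13 cells were used for H3K4me2, H3K27ac and H3K4me3 in DMSO and Corin, 2 libraries each. Per the submitters' processing notes, Trim Galore, Bowtie2, Picard and MACS2 were used with hg38; the control and calling threshold are not given in the sources used here. The lists give each peak's position and a score, which is the authors' own value per peak, a whole number of at least 50 as deposited, and served here for score percentiles within each list and for a stricter score limit. No read counts were used, so the read depth behind a peak is unknown. No peak lay past an hg38 chromosome end.

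Touching peaks were merged, and a region had a peak when at least 1 bp overlapped. The bases given for a site are the summed widths of the peaks that overlap it, so a peak over several sites counts at each except in sums over a gene or group, and alternatives counted the bases inside the region or a 2 kb window. Treatments were compared with an exact permutation test over the 4 libraries. Sites named were the 6 widest, the 4 highest by score, the 4 largest rises and 4 largest falls, the genes nearest to the most sites (9, with ties, of which 1 is not reported here) and sites at 123 genes of 10 lists; others are marked as chosen later. Annotations came from GENCODE release 44 and sequence from hg38. The sites and lists were chosen with earlier results of these data known. The rule was tested on simulated lists. Python 3.11.15, numpy 2.4.6, scipy 1.17.1 and matplotlib 3.10.9 were used. The alternatives were list lengths, score, TSS distance and set, absence margin, overlap, swapped lists, left-out libraries and a replicate block.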

Additional observations from a re-analysis of the deposited data

How the results depend on the processing

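Of 114 alternative values over 8 results, 96 kept the direction, or stayed within the error or 1.5 times, of the reported value. The replicate-block values among them average the same library values as the reported results and so could hardly differ. A further 6 values, from Corin H3K4me2 lists that the rule does not use, could not change. The number of staying sites was 3627 at matched list lengths and ranged from 2871 to 5760 when a library was left out. It was 5760 without DMSO H3K4me2 replicate 1 and 4569 without DMSO H3K4me2 replicate 2, since a single DMSO list then sufficed. The share with a peak in both Corin lists was 82.5% at matched list lengths, 89.97% when at least 50% of the region had to be covered, 39.1% with the lists swapped and 81.3% to 98.3% with a library left out. The CpG-island-like share of staying sites was 16.2% at matched lengths, 22.8% with protein-coding TSS alone, 22.3% with no other mark within 1 kb, 22.5% without the H3K4me3 criterion and 14.45% to 20.1% with a library left out. The share of CpG-island-like distal regions that stayed was 77.8% without the H3K4me3 criterion and 92.6% to 96.1% with a library left out. The values on CpG content, the bases inside the region, the 2 kb window and the dropped criterion were added after seeing the data.

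With the replicate number as a block, the paired log2 differences were 1.26 for width and 1.17 for number in the set of all 4 H3K4me2 lists, -0.22 for staying against acquiring sites and -1.05 for CpG-island-like against other regions, each with an exact sign-flip p of 0.5, the smallest of 4 arrangements. Deviations of same-numbered libraries correlated at 0.25 over 24328 distal regions, a hint from the data, since the labels do not say that a number pairs libraries. The exact tests used could not pass 0.05 with 2 against 2 libraries, and without depth an absent peak cannot be told from a weak signal.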
